A study of Mus musculus with 12 samples.

Results

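Itaconic acid (IA) was set against malonic acid (MA) in mouse bone marrow-derived macrophages, gene by gene. The comparison used 6 of the 12 libraries of the series, 3 with IA and 3 with MA, and all genes of the table; 14113 of its 32285 genes, holding 99.98% of the counts, passed the filter on low counts and were tested. The libraries were chosen by their sample titles, with no measured value. Both groups were wild-type macrophages, grown from bone marrow and plated in 12-well plates, and each received its acid at 5 mM from a 50 mM stock in RPMI medium for 16 h. Untreated macrophages in medium alone (M, 3 libraries) are given for level only, and the 3 libraries with methylsuccinic acid enter the statistical model but no result. The libraries are described as biological replicates, but the sources used here do not give whether they came from separate animals, the strain, sex or age of the mice, or the pH of the medium after an acid was added.

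Itaconic acid is made from the citric acid cycle intermediate cis-aconitate by the enzyme Acod1 in activated macrophages. It is a succinic acid chain that carries a methylene group, so it has a carbon-carbon double bond, can react with thiols and competes with succinate at succinate dehydrogenase. Malonic acid is a shorter, saturated dicarboxylic acid with both carboxyl groups on the same carbon, and it is the classical competitive inhibitor of succinate dehydrogenase. The pair therefore differs in chain length as well as in the double bond, and no other pair of compounds is compared here. Type I interferons bind the Ifnar1 and Ifnar2 receptor, whose kinases Jak1 and Tyk2 activate STAT proteins, among them Stat2, and with Irf9 these bind the interferon-stimulated response element in the promoters of many antiviral genes. TGF-beta acts through the receptors Tgfbr1 and Tgfbr2 on SMAD proteins, which induce their own inhibitors, among them Smad7 and Pmepa1.

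Short promoter sequences of the interferon type were more frequent among the genes with the largest rises than among all tested genes, so these are shown first. The stretches below come from RefSeq promoters (GRCm38.p6, the mm10 build) of genes that were higher with IA, and each is written 5′ to 3′ on the gene's strand. The capitals mark a match to the core of the interferon-stimulated response element, GAAANNGAA on either strand, with 20 bases on each side.
Ifi206: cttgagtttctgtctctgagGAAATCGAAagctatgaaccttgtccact
Gbp2: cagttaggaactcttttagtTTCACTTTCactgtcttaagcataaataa
Cxcl10: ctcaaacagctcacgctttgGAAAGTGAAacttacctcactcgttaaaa
Oas3: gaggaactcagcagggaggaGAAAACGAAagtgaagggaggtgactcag
Trim30a: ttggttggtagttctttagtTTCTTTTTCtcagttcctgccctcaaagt
Stat2: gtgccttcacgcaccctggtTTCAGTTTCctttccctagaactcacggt
Igtp: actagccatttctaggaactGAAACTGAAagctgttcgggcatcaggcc
Slfn9: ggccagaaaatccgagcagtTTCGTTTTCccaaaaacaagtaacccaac
Ifit3: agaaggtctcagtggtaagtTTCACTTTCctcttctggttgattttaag
The matches of Ifi206, Trim30a and Igtp start 40, 35 and 34 bases before the annotated start of transcription. That of Stat2, the signalling protein that binds such elements, lies 221 bases before it, and that of Cxcl10 lies 213 bases before it. Positions are chr1:173491330-173491378 (minus strand) for Ifi206, chr3:142620585-142620633 (plus strand) for Gbp2, chr5:92349074-92349122 (minus strand) for Cxcl10, chr5:120777706-120777754 (minus strand) for Oas3, chr7:104465200-104465248 (minus strand) for Trim30a, chr10:128270257-128270305 (plus strand) for Stat2, chr11:58199502-58199550 (plus strand) for Igtp, chr11:82991846-82991894 (minus strand) for Slfn9 and chr19:34583354-34583402 (plus strand) for Ifit3. Over the 32851 RefSeq promoters searched 7.13% held such a match in the 250 bases before the start. So did 6.41% of the promoters of tested genes. The share was 20.7% (139 of 671 promoters) for genes at least 2-fold higher with IA, 42.5% (45 of 106) for those at least 8-fold higher and 5.80% (25 of 431) for those at least 2-fold lower. In the interferon-induced families described below 45 of 86 promoters held it (52.3%). Genes that were higher with MA can hold it too, as Egr2, Cd9 and Apoe do. A match is a string of letters and says nothing of binding in these cells, and the shares are descriptions of sets chosen on their expression.

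Library totals were 50217181 to 54252486 counts with IA and 50236563 to 52421284 with MA. The TMM factors that scale them were 0.927 to 0.935 with IA and 1.02 to 1.05 with MA. In a principal component analysis of the 6 libraries, 64.8% of the variance fell on the first component, with IA at -45.3 to -42.1 and MA at 42.0 to 45.6. The 14 macrophage markers were all above 1 CPM (CPM is a gene's count scaled by the TMM library size) in both groups and summed to 32445 to 34604 CPM with IA and 34150 to 36391 CPM with MA. Of them 9 were higher with IA and 2 lower (median log2 fold change 0.26). The one with the most counts, the lysozyme gene Lyz2, was lower with IA (14970.3 ± 1152 against 21286 ± 1010.1 CPM, SD, n = 3 each; log2 fold change -0.51, edgeR adjusted p = 5.19e-04). Marker lists of other cells stayed low in both groups. They summed to 64.6 to 104 CPM with IA and 57.9 to 77.9 CPM with MA for 10 neutrophil genes, 4.82 to 6.02 and 3.44 to 4.79 CPM for 9 lymphocyte genes, 16.2 to 24.2 and 15.1 to 37.8 CPM for 8 stromal genes, 0.738 to 0.894 and 0.228 to 0.689 CPM for 6 mast cell and basophil genes, and 44.3 to 68.6 and 39.1 to 51.5 CPM for 9 erythroid and megakaryocyte genes (mainly Pf4). At 0 counts in all 6 libraries were the lymphocyte genes Cd3g and Ncr1, the stromal gene Lum, the mast cell and basophil genes Fcer1a, Mcpt4 and Mcpt8, and the erythroid gene Hba-a2. The 7 dendritic cell markers summed to 7.26 to 9.41 CPM with IA and 2.96 to 3.68 CPM with MA, and the part of such cells in the results was not tested. Of these 7 only the chemokine receptor gene Xcr1 passed the test (4.56, 5.08 and 4.94 CPM with IA, 0.317, 0.551 and 0.462 CPM with MA). In bulk RNA, fewer cells of a type and less RNA per cell cannot be told apart.

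The question of the comparison is which transcripts differ between macrophages given itaconic acid and those given another inhibitor of succinate dehydrogenase at the same dose and time. Most genes of the interferon-induced families, of MHC class I with the immunoproteasome, of the CC chemokines and of cholesterol synthesis were higher with IA. Most mitosis genes and 6 of 12 mitochondrially encoded mRNAs were higher with MA. So were 12 of 26 genes of the TGF-beta pathway and 11 of 23 adhesion and surface genes. The gene lists were chosen with earlier results of these data known, so these counts are descriptions. The transcripts of succinate dehydrogenase itself differed little. A gene was called where edgeR's quasi-likelihood test gave a Benjamini-Hochberg adjusted p under 0.05. That held for 4887 of the 14113 tested genes (34.6%), of which 2516 were higher with IA (17.8%) and 2371 were lower (16.8%). Differences are log2 fold changes of IA over MA, so a positive value means higher with IA. Upper-quartile scaling in place of TMM moved this split to 1977 higher and 3289 lower, a share of 37.5% higher in place of 51.5%, with the median over all genes shifted by -0.07. The 3 IA values lay wholly above or below the 3 MA values for 7000 genes (49.6%).

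The sizes were lopsided although the counts were not. At least 2-fold higher with IA were 739 called genes, against 447 lower (659 and 560 under upper-quartile scaling). At 4-fold these were 315 and 85, and at 8-fold 133 and 20. Of the 133 and the 20, 15 and 9 had 0 to 3 counts over the 3 libraries of the lower group. With those set to 3 counts over the group, the 8-fold counts were 133 and 19. Genes at least 2-fold lower also had fewer counts, with a median of 3.25 CPM in their higher group, against 15.7 CPM for those higher and 18.4 CPM over all tested genes. The mean of untreated cells, on log2(CPM + 0.1), lay nearer to MA than to IA for 609 of the 739 genes higher with IA. For the 447 genes lower with IA it lay nearer to MA for 206 and nearer to IA for 241. Similar levels were measured for many genes: the 95% interval of the difference lay within 1.5-fold either way for 7387 genes (52.3%), 5561 of them not called. A further 3665 genes were not called and had intervals that reached past 1.5-fold, so these data do not show that the compounds act alike on them.

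**Figure D1:**
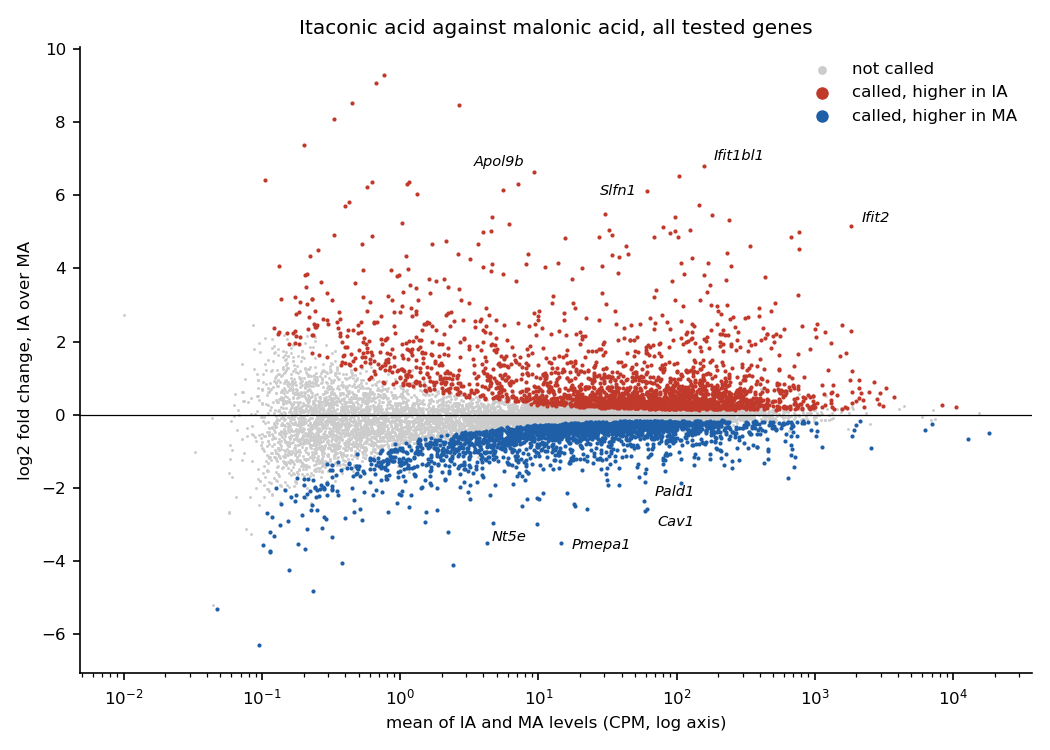
Log2 fold change of IA over MA against the mean level in the 2 groups (CPM, log axis) for the 14113 tested genes. Red points are the 2516 genes called higher in IA and blue points the 2371 called higher in MA; the red cloud reaches further from 0 (133 genes at 8-fold or more against 20).

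The largest differences were taken from called genes at 10 CPM or more in the higher group, with no overlap between IA and MA values. The 12 largest rises with IA were nearly all interferon-induced. Ifit1bl1, a member of the interferon-induced Ifit family of RNA-binding proteins, stood at 297, 329 and 306 CPM in the IA libraries and at 1.9, 2.56 and 3.93 CPM in the MA libraries. The log2 difference was 6.80 (SE 0.46; edgeR adjusted p = 3.49e-06), while untreated cells held 6.85, 9.93 and 17 CPM. All 3 IA values lay above every MA and M value.
Ifit2, its neighbour and relative, held 3225, 3735 and 3703 CPM with IA and 77.7, 105 and 114 CPM with MA (5.17, SE 0.25, adjusted p = 2.59e-07, edgeR). Slfn1, a Schlafen family gene on chromosome 11 from 83116849 to 83122670 (GENCODE M21, mm10), held 135, 109 and 119.6 CPM with IA and 1.04, 1.98 and 2.17 CPM with MA (6.13, SE 0.41). Ifi44 followed with 305, 243 and 309 and 4.88, 5.55 and 5.5 CPM (5.75, SE 0.30). The groups of each were far apart, and the MA means lay below those of untreated cells. Gbp4, a guanylate-binding GTPase, was near 0 with MA, at 0.0373, 0.152 and 0.346 CPM against 14.9, 14.3 and 13.2 CPM with IA (6.30, SE 0.58). The membrane protein gene Ms4a4c differed by 5.32. Pou3f1, a POU domain transcription factor gene on chromosome 4 from 124656807 to 124660655, held 10.9, 12.2 and 12.5 CPM with IA and 0.298, 0.456 and 0.192 CPM with MA (5.22, SE 0.33). The GTPase gene Iigp1 differed by 6.52. The other four, Apol9b (6.64), Gbp6 (5.49), Ifit3b (5.45) and Tgtp2 (5.42), share 36.7%, 64.5%, 27.4% and 76.8% of their transcript sequence with other genes in 100-base stretches, so reads may be split among relatives and their values are uncertain. In all 12 the IA mean was above the M mean and the MA mean was below it. The 12 were chosen for large gaps between IA and MA, so their place against M is not independent of that choice. Whether MA differed from M was not tested here.

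The 12 largest falls, genes higher with MA, were of other kinds. Pmepa1, a membrane protein that TGF-beta induces and that restrains TGF-beta signalling, stood at 28.2, 26.4 and 26.3 CPM in the MA libraries and at 1.96, 2.93 and 2.28 CPM in the IA libraries. It was 11.2-fold higher with MA, and the log2 fold change of IA over MA was -3.49 (SE 0.15, adjusted p = 1.61e-12 in edgeR's test). Untreated cells held 0.524, 0.815 and 0.65 CPM, below both acids. The gene lies on chromosome 2 from 173224458 to 173276533, and Nt5e, the next in size, lies on chromosome 9 from 88327197 to 88372092. Nt5e, the ectoenzyme CD73 that makes adenosine from AMP, held 19.4, 18 and 14.5 CPM with MA and 2.85, 1.9 and 1.81 CPM with IA (-2.98, SE 0.21). Ptgfrn, a membrane partner of tetraspanins, held 98.7, 111 and 97.2 CPM with MA and 13.7, 21.4 and 14.5 CPM with IA (-2.63, SE 0.18). In Nt5e as in Pmepa1 both acids lay above every untreated value, while untreated cells held 16.9, 21.1 and 15.4 CPM of Ptgfrn.
Cav1 encodes the main coat protein of caveolae and lies on chromosome 6 from 17306335 to 17341452. It held 99.3, 112 and 105 CPM with MA and 12.9, 21.7 and 18.1 CPM with IA (-2.58, SE 0.26). The chondroitin sulfate proteoglycan gene Cspg4 differed by -2.57 (38.6 ± 5.2 against 6.49 ± 1.4 CPM, SD, n = 3 each). A pair of matrix genes was among the 12. Fn1, fibronectin, held 41.5, 26.5 and 25.5 CPM with MA and 6.07, 4.26 and 6.43 CPM with IA (-2.48, SE 0.41), the widest error of the 12. Col14a1, a collagen of fibril surfaces, differed by -2.30. The tightest was Pald1, a phosphatase-like protein, with 95.6, 97.5 and 96.9 CPM with MA and 18.1, 19.6 and 19.3 CPM with IA (-2.34, SE 0.08). The other four were the endosomal adaptor Rab11fip4 (-2.49), the lactate dehydrogenase B chain Ldhb (-2.43), the ubiquitin ligase adaptor Spsb1 (-2.29) and the transcriptional repressor Bhlhe40 (-2.28). All 3 MA values lay above all 3 untreated values in each of the 12. The IA mean was above the untreated mean in 6 and below it in 6. These 12 too were chosen for large gaps, so their place against untreated cells is not independent of that choice. Over all 447 genes at least 2-fold lower with IA, the untreated mean lay nearer to IA for 241 and nearer to MA for 206.

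**Figure D2:**
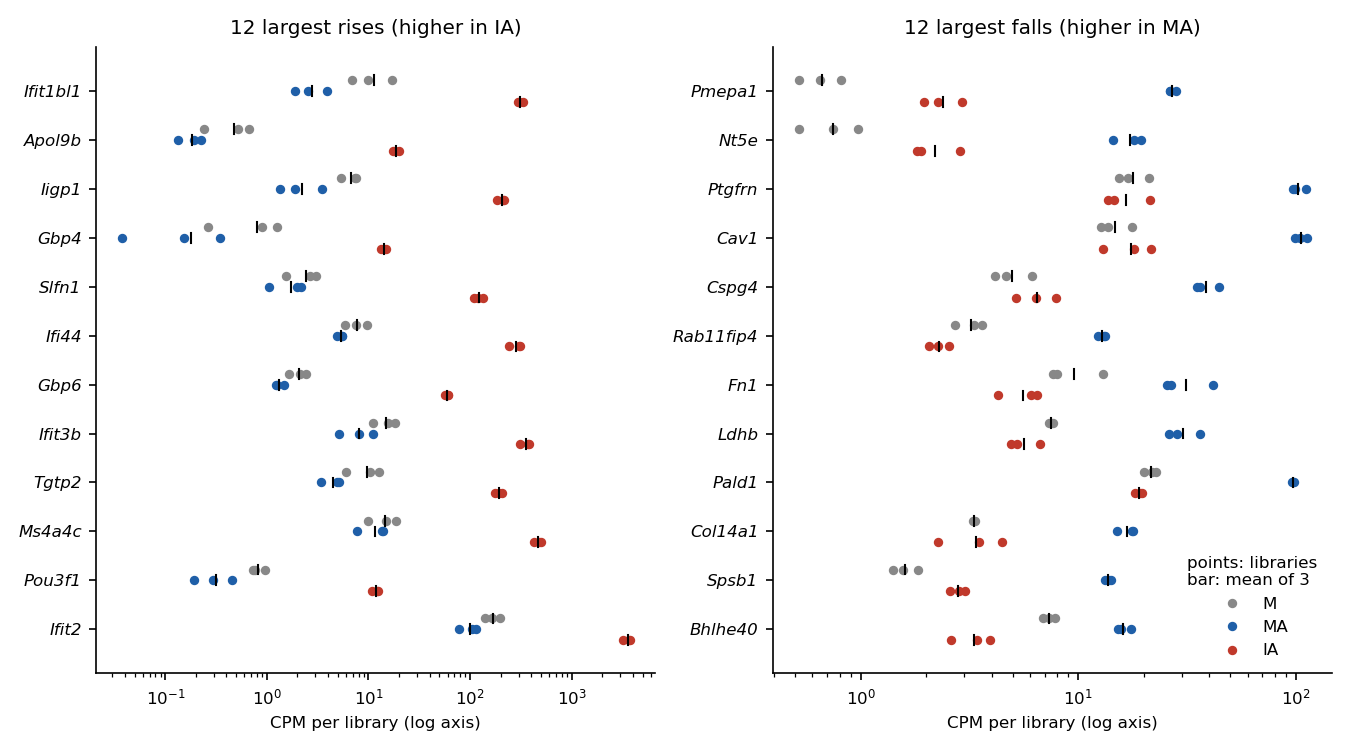
Level per library (CPM, log axis) of the 12 largest rises and the 12 largest falls with IA against MA; points are the 3 libraries of IA (red), MA (blue) and untreated cells (M, grey), and the black bar is their mean. The 24 genes were chosen for large differences with no overlap between IA and MA values. Their place against M is not independent of that choice. The MA means of the rises lie below the M means, while all MA points of the falls lie above the M points.

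The genes were then read by group, from 47 lists of pathways and families, 794 entries in all with 18 genes on more than 1 list. The lists were chosen with earlier results of these data known, so a count is a description, to be read beside the 17.8% called higher, the 16.8% called lower and the median of -0.03 over all tested genes. A gene is named as uncertain where at least 10% of its transcript sequence is shared with other genes. As the counting is not known to use strand, the values of H2-T22, Gadd45a, Prdx5, Psmb8, Cd274, Ccna2, Tgfb3, Cd276, Keap1, Cd9, Dll1 and Pdgfa are uncertain too, since a gene on the other strand covers 10% or more of their exons.

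**Figure D3:**
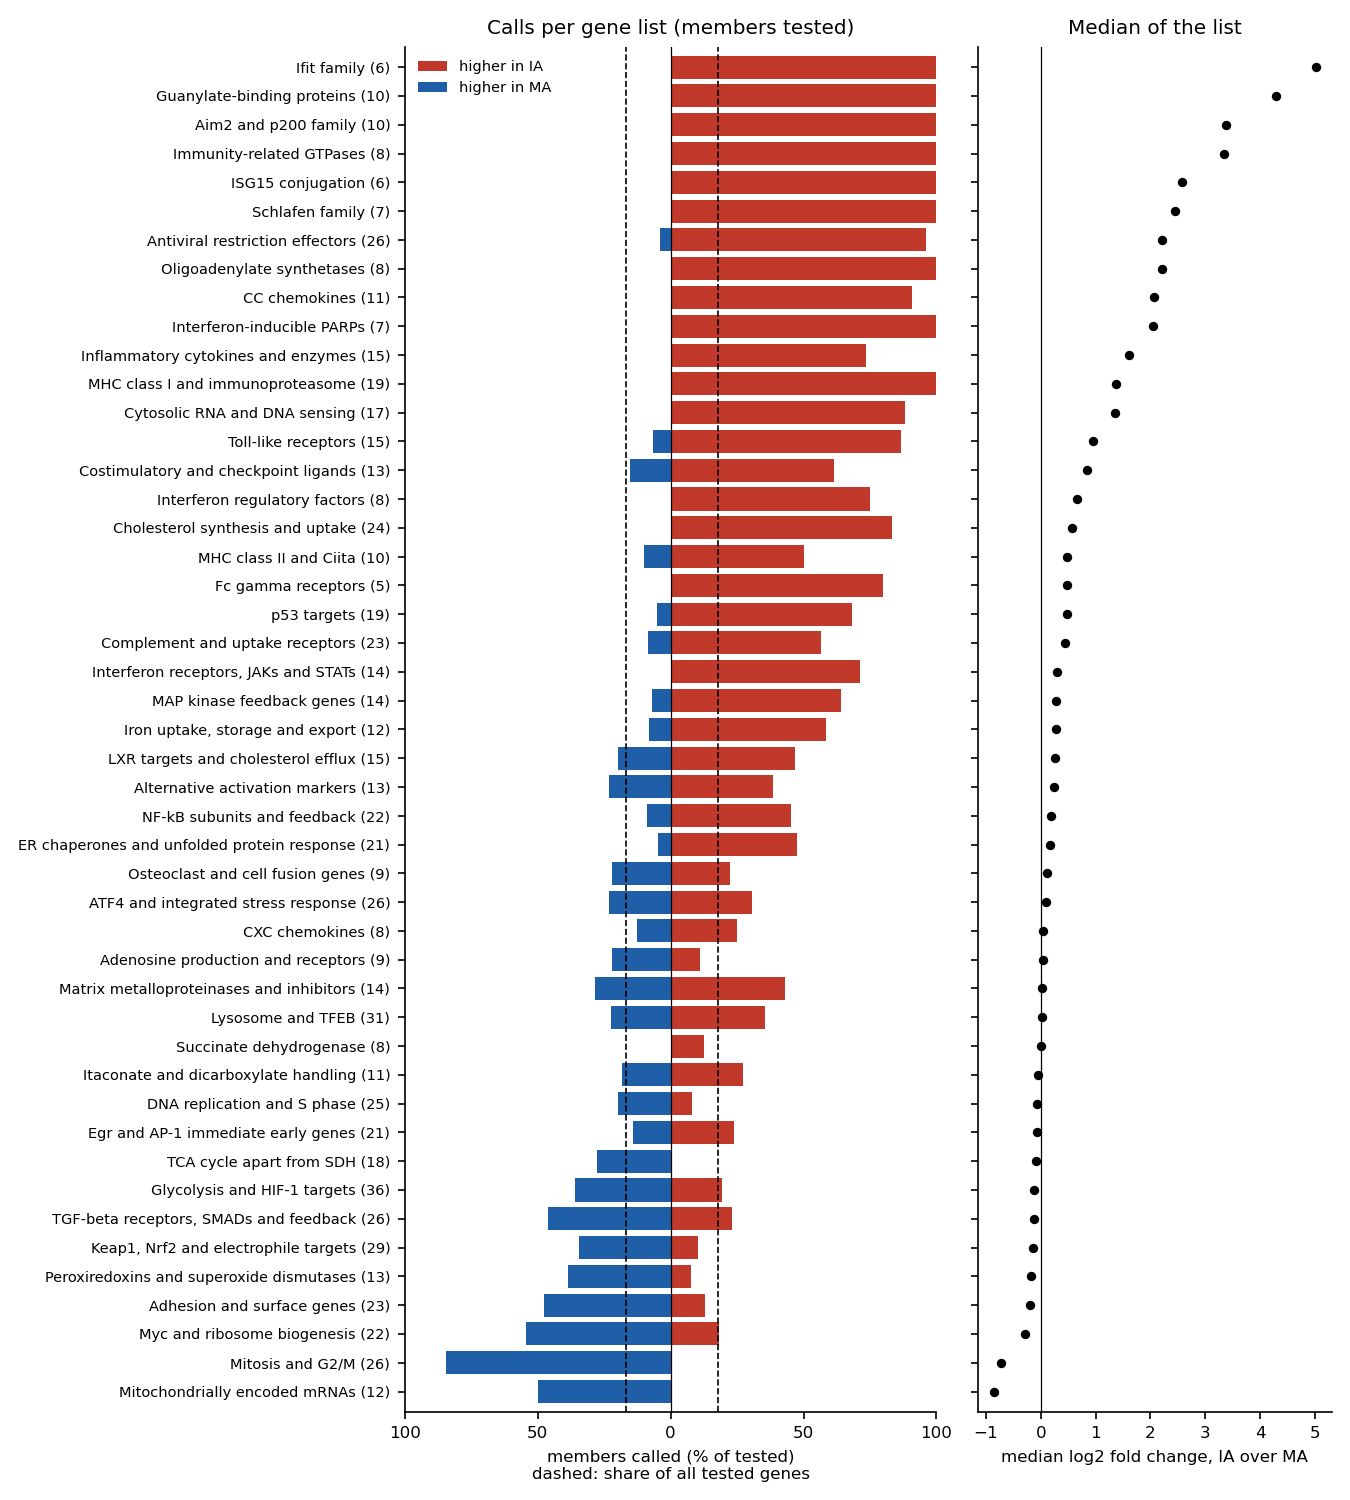
Share of the tested members of each of 47 gene lists called higher in IA (red, right) or higher in MA (blue, left), in percent, with dashed lines at the shares of all tested genes (17.8% and 16.8%), and the median log2 fold change of each list (black points). Interferon-induced families fill the top with all or nearly all members called higher in IA, and mitosis genes and mitochondrially encoded mRNAs stand at the bottom.

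The interferon response was described from the receptor down. Of 14 receptor, kinase and STAT genes 10 were called higher with IA and none lower, with a median of 0.30. The receptor genes differed little: Ifnar1 stood at 375, 347 and 336 CPM with IA and 375, 348 and 329 CPM with MA (0.01, 95% interval -0.14 to 0.16), and Ifnar2 was higher by 0.24. Stat2, a transcription factor they act through, differed far more. It held 816, 859 and 848 CPM with IA and 108, 119 and 125 CPM with MA (2.84, SE 0.14, adjusted p = 2.14e-08, edgeR). It was 7.16-fold higher with IA, with no overlap between the groups. Of 8 interferon regulatory factors 6 were higher and none lower, with a median of 0.65. Irf7, which drives further interferon production, held 1571, 1375 and 1477 CPM with IA and 49, 69.3 and 73.4 CPM with MA (4.53, SE 0.31). Irf1 (1.73) and Irf9 (0.60), a partner of the STATs, were also higher, while Irf3 (-0.14) and Irf8 (0.11) were not called. The transcript of interferon beta itself, Ifnb1, was too rare to be tested, with 4, 8 and 4 counts in the IA libraries and 0 in each MA library.

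Of 17 tested sensors of foreign nucleic acids and their adaptors 15 were higher with IA and none lower, with a median of 1.35. Zbp1, a sensor of Z-form nucleic acid, held 308, 304 and 339 CPM with IA and 15.1, 18.3 and 20.5 CPM with MA (4.14, SE 0.23). The RNA helicases Ddx58 (RIG-I, 2.66), Ifih1 (MDA5, 2.32) and Dhx58 (2.27), the RNA-activated kinase Eif2ak2 (1.78) and the DNA sensor Cgas (1.35) moved the same way. The adaptors Mavs (0.02, 95% interval -0.12 to 0.15) and Tmem173, which encodes STING (-0.12, 95% interval -0.31 to 0.07), were not called.

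In 8 effector families every tested member was called higher. These were 6 of 6 Ifit genes (median 5.02), 10 of 10 guanylate-binding proteins (4.30), 10 of 10 Aim2 and p200 genes (3.37), 8 of 8 immunity-related GTPases (3.34), 6 of 6 genes of ISG15 conjugation (2.58), 7 of 7 Schlafen genes (2.44), 8 of 8 genes of the oligoadenylate synthetase list (2.21) and 7 of 7 interferon-inducible PARPs and partners (2.05). Isg15, the ubiquitin-like modifier, held 165, 233 and 211 CPM with IA and 9.65, 12.7 and 12.1 CPM with MA (4.14, SE 0.32), and its protease Usp18 differed by 3.42. Within families the members were spread widely. The synthetase-like Oasl1 was 29-fold higher and Oas3 9.65-fold. Aim2, the inflammasome sensor (0.69), differed least of its list and Ifi206 (5.04; uncertain, 13.1% shared) most. Gbp2b and Gbp10 held 0 and 3 counts over the MA libraries against 97 and 70 over the IA libraries, so their fitted values depend on the prior count; with 3 counts over the group as the floor, Gbp2b was at least 35.3-fold higher, and the median of the family was 4.30 either way. Gbp10 is also uncertain, with 73.5% of its sequence shared.

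Of 26 antiviral restriction genes 25 were higher with IA and 1 was lower, with a median of 2.21. Rsad2, the radical enzyme viperin that makes a chain-terminating nucleotide, held 1249.8, 1692 and 1497 CPM with IA and 37.5, 46 and 55.5 CPM with MA (5.00, SE 0.25), and its genomic neighbour Cmpk2 differed by 4.62. Tetherin (Bst2, 2.15), Ifitm3, which blocks viral entry (2.21), and Samhd1, which depletes nucleotides (1.81), were abundant in IA at 815, 858 and 1444 CPM. The exception was Ifi27, with 11, 22.8 and 13.6 CPM with IA and 59.5, 63.5 and 57.9 CPM with MA (-1.93, SE 0.26, adjusted p = 3.55e-04, edgeR), although its relative Ifi27l2a was higher with IA by 1.82.

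Some of the genes that were higher with IA than with MA lay side by side. Along the chromosomes there were 25 runs of at least 4 neighbouring tested genes that were all called and at least 2-fold higher, on 14 chromosomes, and no such run of genes lower with IA. They held 144 genes, 19.5% of the 739, and the share expected from gene order was not tested. The runs compare IA with MA and do not show a rise over medium. The longest held 12 genes on chromosome 1 from 173468485 to 174248450 (GENCODE M21, mm10), which takes in the p200 genes from Ifi206 to Ifi205. Next came 11 genes on chromosome 11 from 48861968 to 49135387 with Irgm1, Tgtp2 and Ifi47. Other runs held all 6 Ifit genes (chromosome 19 from 34550694 to 34650009), 8 genes from Trim12a to Trim30d on chromosome 7, 8 genes ending in Sp100 on chromosome 1, and 2 runs of 5 guanylate-binding proteins on chromosomes 3 and 5. Some runs were of families with few or no members on the lists: 7 genes from Ms4a4a to Ms4a6b, 5 lectin genes from Clec4a1 to Clec4a2, 5 from Cd300ld2 to Cd300e, 6 chemokine receptor genes that start with Xcr1, a dendritic cell marker here, and 4 with the receptor genes P2ry14 and P2ry13. Neighbours in a family share sequence and may share reads, and counts of overlapping genes cannot be told apart without strand.

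**Figure D4:**
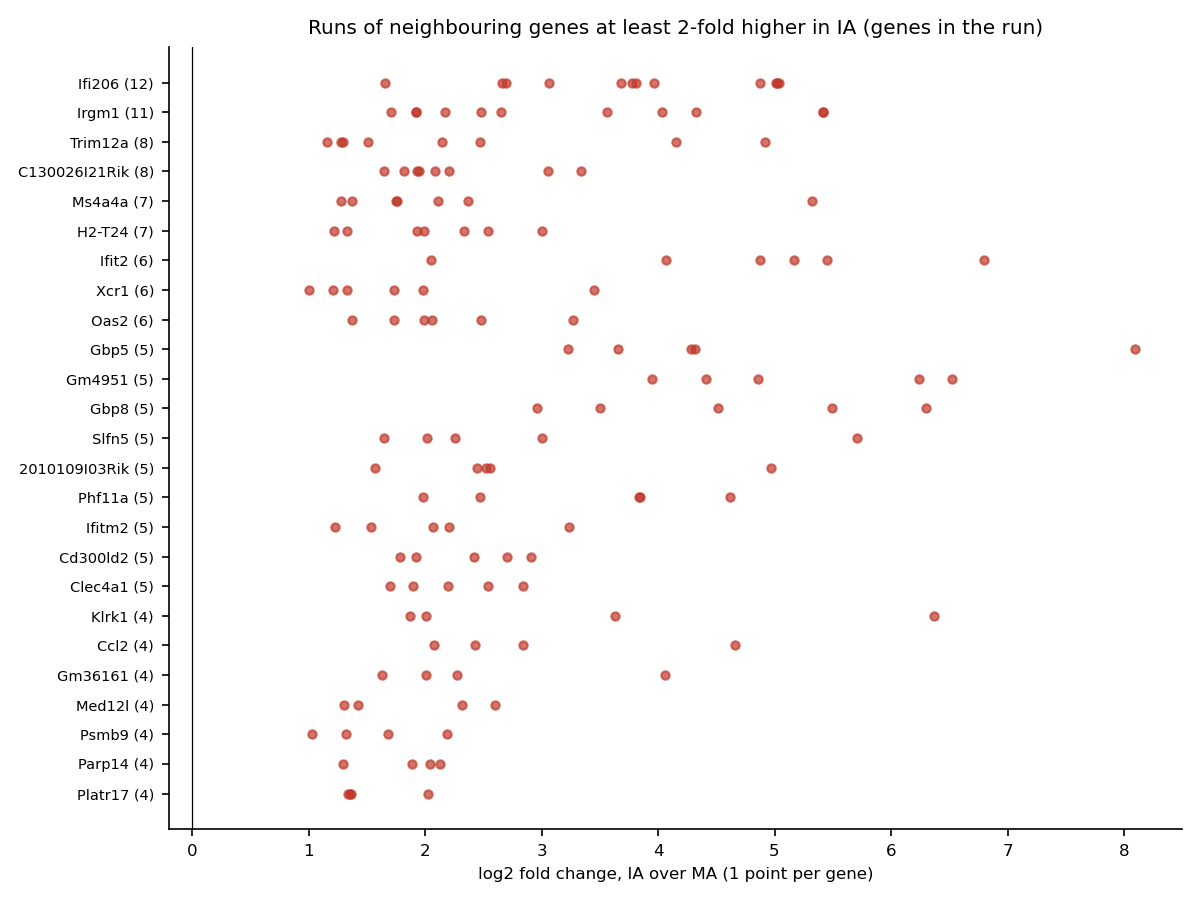
Log2 fold change of IA over MA for each gene in the 25 runs of at least 4 neighbouring tested genes that were called and at least 2-fold higher in IA; each row is a run named by its first gene, with the number of genes in brackets. No point lies left of 1 by construction, and the rightmost point, Gbp2b, rests on 0 counts in MA and depends on the prior count.

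Antigen presentation on MHC class I was higher with IA in all 19 tested genes, with a median of 1.37. The peptide transporter Tap1 held 368, 364 and 366 CPM with IA and 76.2, 79.2 and 86 CPM with MA (2.19, SE 0.09), the class I transactivator Nlrc5 differed by 1.84, and the immunoproteasome subunits Psmb9, Psmb10 and Psmb8 by 1.68, 1.37 and 1.32. The classical heavy chains H2-K1 (1.20) and H2-D1 (0.91) and their partner B2m (0.96) differed by about 2-fold, and the non-classical H2-T22 and H2-T23 by 2.33 and 1.99. MHC class II was less uniform, with 5 of 10 genes higher, 1 lower and a median of 0.48. The invariant chain Cd74 held 108, 126 and 146 CPM with IA and 54.7, 65.9 and 72.9 CPM with MA (0.98, adjusted p = 0.0034, edgeR), and both means lay below that of untreated cells, at 131, 173 and 197 CPM. The count of 5 was 2 without IA replicate 2 or MA replicate 1 and 3 without IA replicate 3 or MA replicate 2. Of the Fc gamma receptor genes, which bind IgG, 4 of 5 were higher. The high-affinity receptor Fcgr1 held 1736, 1713 and 1795 CPM with IA and 290.1, 321 and 326 CPM with MA (2.49, SE 0.13), and Fcgr4 differed by 3.36. The inhibitory receptor Fcgr2b was not called (-0.16), but was called lower under 6 of the alternatives.

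Among chemokines the CC family was higher with IA in 10 of 11 tested genes (median 2.07). Ccl5, which draws T cells, held 35.5, 30.9 and 23.7 CPM with IA and 0.671, 1.12 and 1.39 CPM with MA (4.83, SE 0.53). The monocyte attractants Ccl2 (2.07), Ccl7 (2.43) and Ccl12 (4.66) lie in 1 of the runs above, and Ccl9, another macrophage chemokine, differed by 1.04. Of 8 CXC chemokines 2 were higher and 1 lower. The interferon-induced Cxcl10 held 112, 199.6 and 156 CPM with IA and 3.19, 4.88 and 5.29 CPM with MA (5.13, SE 0.37), and its relative Cxcl9 held 4.3, 4.84 and 3.33 and 0.0373, 0.076 and 0.346 CPM (4.75). Cxcl14 was lower with IA (37.8, 60.7 and 49 against 99.1, 132 and 114 CPM, -1.23). The neutrophil attractants Cxcl1 (-0.64, 95% interval -1.45 to 0.16) and Cxcl2 (-0.38, -0.71 to -0.05) were not called. Cxcl1 was rare, with a mean of 0.401 CPM with IA and 0.627 CPM with MA. Both intervals reached past 1.5-fold, so these data do not show similar levels of either gene.

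Of 15 tested inflammatory cytokines and enzymes 11 were higher with IA and none lower (median 1.62). The anti-inflammatory cytokine gene Il10 held 8.11, 9.56 and 8.69 CPM with IA and 0.559, 0.513 and 0.423 CPM with MA (4.13, SE 0.20), on either side of the 2.38, 3.59 and 2.83 CPM of untreated cells. Acod1, the enzyme that makes itaconate, held 25.6, 25.9 and 26.5 CPM with IA and 4.81, 6.27 and 6.1 CPM with MA (2.18, SE 0.24, adjusted p = 1.91e-05, edgeR), against 1.49, 2.09 and 3.19 CPM in medium. Il1b (1.83), Il15 (1.81), Il18 (1.62) and Tnf (0.64) were also called. Nos2, inducible nitric oxide synthase, held 124 counts over the IA libraries and 2 over the MA libraries. Il6, Il12a, Il12b and Il23a had too few counts to be tested. Of 22 genes of NF-kB subunits and feedback 10 were higher and 2 were lower, beside 17.8% and 16.8% over all tested genes. The differences were mostly small, with a median of 0.18 and 95% intervals within 1.5-fold for 17. These are transcripts, and NF-kB activity was not measured. The subunits Rela (0.09, -0.05 to 0.22) and Nfkb1 (0.12, 0.00 to 0.24) and the inhibitor Nfkbia (0.09, -0.06 to 0.23) were not called. The largest differences of that list were in the cytokine signalling inhibitor Socs1 (2.43), the costimulatory receptor Cd40 (1.93) and the nuclear cofactor Nfkbiz (1.64).

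Receptors of innate recognition leaned the same way. Of 15 Toll-like receptor genes and partners 13 were higher with IA and 1 was lower (median 0.94). The endosomal nucleic acid receptors Tlr3 (1.85), Tlr9 (1.74) and Tlr7 (1.25) differed most apart from Tlr12, which stood below 1 CPM and lost its call without any 1 of the IA libraries or MA replicate 1 or 3, the endotoxin receptor Tlr4 differed by 0.89, and the lipoprotein receptor Tlr2 was lower (-0.47). Complement and uptake genes were higher in 13 of 23 and lower in 2 (median 0.45). The central component C3 held 852, 677 and 691 CPM with IA and 167, 160.2 and 152 CPM with MA (2.21, SE 0.17), and the receptor kinase Axl, which takes up dying cells, differed by 1.22. Mfge8, a bridge to dying cells (-1.17), and Mertk (-0.30) were lower, the latter not without IA replicate 3 (adjusted p = 0.0611). Of 13 costimulatory and checkpoint ligands 8 were higher and 2 lower (median 0.84). Tnfsf10, the death ligand TRAIL, held 54, 72.3 and 68.7 CPM with IA and 2.96, 3.5 and 2.92 CPM with MA (4.38, SE 0.21), and Cd274, which encodes PD-L1, differed by 2.05. Cd276 (-1.26) and Havcr2, which encodes TIM-3 (-0.68), were higher with MA.

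The TGF-beta pathway was divided. Of its 26 receptors, SMADs and feedback genes 12 were lower with IA, 6 were higher and the median was -0.13. The list was chosen after Pmepa1 was known to differ between these groups, so its count is not independent evidence of a direction. The receptor gene Tgfbr1 held 1018, 993 and 1082 CPM with MA and 367, 379.6 and 409 CPM with IA (-1.42, SE 0.07), with untreated cells at 388, 402 and 358 CPM. Only MA stood apart there. Its partner Tgfbr2 was not called (-0.04, 95% interval -0.18 to 0.11), nor was the ligand Tgfb1 (-0.05, -0.18 to 0.08). The inhibitory SMAD gene Smad7 held 18.3, 19.1 and 19.5 CPM with MA and 6.22, 7.3 and 6.81 CPM with IA (-1.48, SE 0.10). The matrix protein gene Tgfbi, a classical target, held 466, 521 and 502 CPM with MA and 275, 284 and 255 CPM with IA (-0.87, SE 0.09), and the corepressor Ski (-0.58) and the decoy receptor Bambi (-1.17) were lower with IA as well. Against these went Id1 (2.03) and Id3 (1.25), which are classical targets of the related BMP ligands, the ligand Tgfb3 (1.57) and the accessory receptor endoglin (Eng, 0.81). The transducers Smad2 (0.08, not called), Smad3 (0.32) and Smad4 (0.21) differed by less than 1.5-fold. The short SMAD box CAGACA stood in 16.0% of the promoters of genes at least 2-fold lower with IA and 13.6% of those higher. It stood in 20.8% (22 of 106) of the promoters of genes at least 8-fold higher with IA. Its share was 13.7% for tested genes and 17.1% for all promoters searched.

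Adhesion and surface genes were lower with IA in 11 of 23 and higher in 3 (median -0.19). This list too was chosen with earlier results known, so its count is not independent evidence of a direction. F11r, a tight junction adhesion molecule, held 44, 51 and 56.4 CPM with MA and 12, 12.8 and 15.1 CPM with IA (-1.92, SE 0.14), both above the 2.58, 3.89 and 4.47 CPM in medium. The proteoglycan syndecan 1 (Sdc1, -1.47), the integrin chains Itgax (CD11c, -1.34), Itgb5 (-0.94) and Itgav (-0.46), and the tetraspanin Cd9 (-1.25) were lower with IA. Itgb1 (-0.01) and Cd44 (-0.06) were not called. In adenosine metabolism Nt5e stood alone in size: of 9 genes 2 were lower and 1 higher, and the upstream ectonucleotidase Entpd1 was not called (-0.08, 95% interval -0.23 to 0.06). Matrix metalloproteinases and inhibitors split, with 6 of 14 higher and 4 lower. The collagenase Mmp13 held 55, 75.9 and 58.6 CPM with IA and 9.47, 7.62 and 9.33 CPM with MA (2.84, SE 0.17), and Mmp25 differed by 3.15, while Mmp14 (-0.79), Mmp2 (-1.15) and the inhibitor Timp2 (-0.53) were lower.

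Markers of alternative activation and of osteoclasts gave no common direction. Of 13 alternative activation genes 5 were higher and 3 lower. The mannose receptor Mrc1 held 623, 625 and 548 CPM with IA and 236, 196 and 189.6 CPM with MA (1.53, SE 0.09), with untreated cells at 905, 819 and 755 CPM, and the lectin Clec10a differed by 2.25. Arginase 1 (Arg1, -1.21) and Fn1 were lower. Of 9 tested osteoclast and fusion genes 2 were higher (Mmp9, 0.93, and Tnfrsf11a, 0.40) and 2 were lower (Nfatc1, -0.19, and Atp6v0d2, -0.37). The latter count was 0 without MA replicate 1 and 1 with no filter on low counts or without any of the other IA or MA libraries apart from MA replicate 2. Of 21 immediate early genes of the Egr, AP-1 and related families 5 were higher, with Klf2 (1.41) first, and 3 were lower, with Maff (-1.31) and Egr2 (-1.14) first. Without MetSA replicate 3, a library outside both groups, and under upper-quartile scaling, 5 were called lower. Of 14 feedback genes of MAP kinases 9 were higher and 1 lower (median 0.28), led by the phosphatase Dusp1 (1.16). The lower one, Dusp4 (-0.31), lost its call without IA replicate 1 or 3 or MA replicate 2 or 3.

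The shared target of the acids was looked at gene by gene. Of 8 genes of succinate dehydrogenase and its assembly factors 1 was called, and 95% intervals lay within 1.5-fold for 6. Sdha, the catalytic subunit, held 250.2, 252 and 240.3 CPM with IA and 225, 231 and 238 CPM with MA (0.09, 95% interval -0.02 to 0.21), and Sdhb, the iron-sulfur subunit, 77.1, 81.5 and 78.6 and 76.2, 79.5 and 82 CPM (-0.00, -0.14 to 0.14). The groups overlapped for Sdhb, and for Sdha the lowest IA value lay just above the highest MA value. The membrane anchors Sdhc (-0.12 to 0.19) and Sdhd (-0.12 to 0.12) had similar intervals, so the intervals of these 4 transcripts leave out a 1.5-fold difference either way. The 1 call, the assembly factor Sdhaf2 (0.22), lost its call without MA replicate 1 or 2, with no filter on low counts and under upper-quartile scaling. Of 18 other genes of the citric acid cycle 5 were lower with IA and none higher (median -0.09). Across the alternatives 4 to 7 were lower. Without MA replicate 1, with the 6 libraries alone and with the replicate block, 1 was called higher. The 5 lower were the dehydrogenases Idh2 (-0.62), Idh1 (-0.46), Mdh1 (-0.37) and Idh3a (-0.35) and the succinyl-CoA ligase subunit Suclg2 (-0.27). Suclg2 lost its call without IA replicate 2. Idh1 and Mdh1 encode the cytosolic forms. Of 11 genes that make, carry or break down itaconate and related acids 3 were higher, Acod1, the sodium-dependent dicarboxylate carrier Slc13a3 (1.13) and Slc16a7 (0.42). Lower were Clybl, the mitochondrial citramalyl-CoA lyase of itaconate breakdown (3.09, 4.78 and 4.7 against 6.82, 6.8 and 7.56 CPM, -0.75), and the monocarboxylate carrier Slc16a1 (-0.46). The genes of malonate use, Acsf3 (-0.08, 95% interval -0.31 to 0.15) and Mlycd (-0.11, -0.31 to 0.09), were not called.

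**Figure D5:**
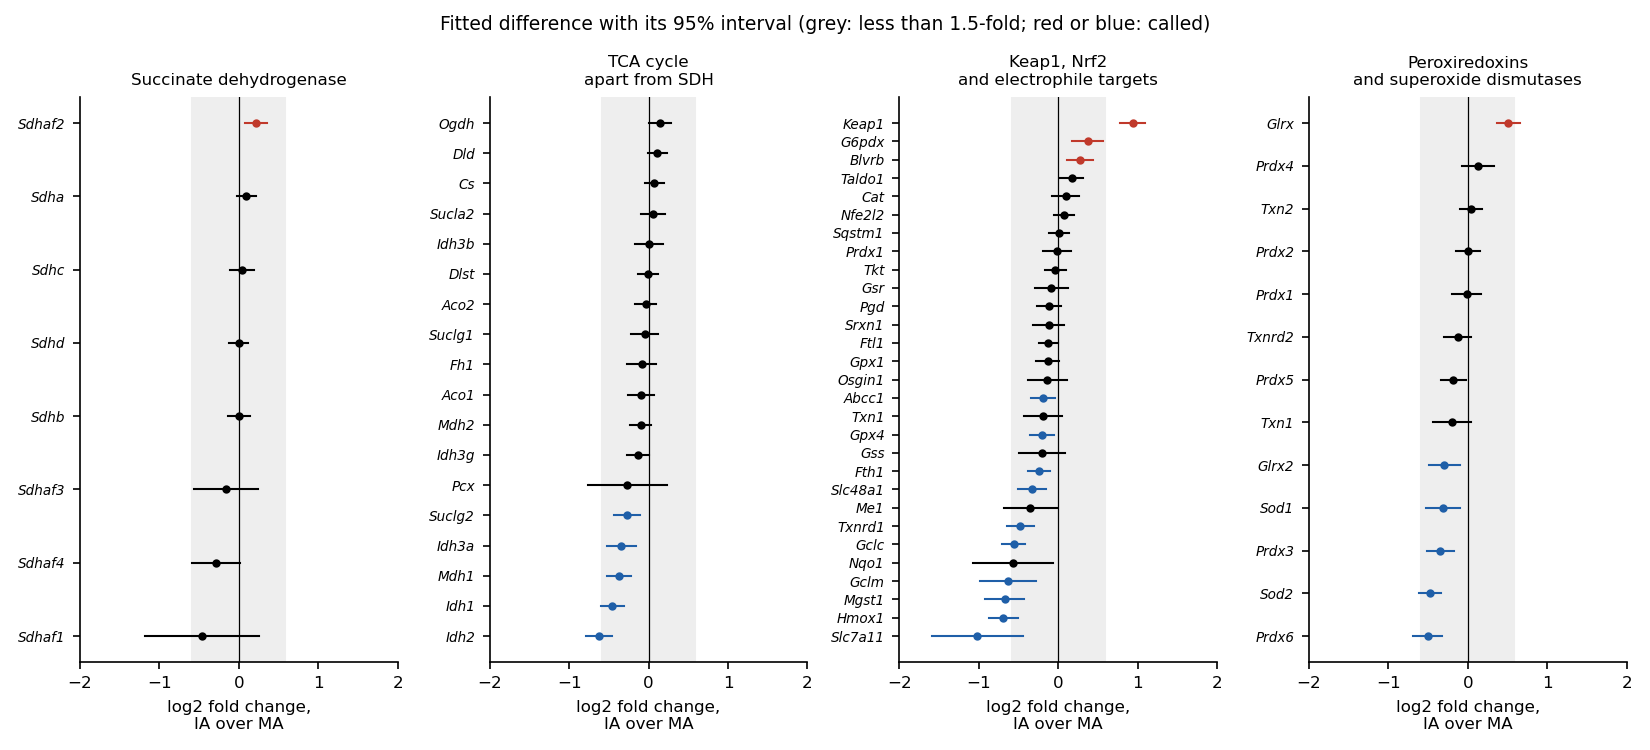
Fitted log2 fold change of IA over MA (points) with its 95% interval (lines) for the tested genes of 4 lists; red and blue mark genes called higher in IA and in MA, black those not called, and the grey band covers differences of less than 1.5-fold. The succinate dehydrogenase subunits sit near 0 with short intervals, and the assembly factors on that list reach down to -0.46. Of 29 Nrf2-related genes 10 lie to the left in blue, and Keap1 lies to the right.

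Of 36 genes of glycolysis and HIF-1 targets 7 were higher and 13 lower (median -0.11). The myeloid hexokinase Hk3 (0.81) and the regulator Pfkfb3 (0.50) were higher with IA, and the glucose transporter Slc2a1 (-0.67), Hk2 (-0.44), Egln3 (-1.35), a hydroxylase of HIF proteins, and Epas1, which encodes HIF-2 alpha (5.15, 4.64 and 3.5 against 12.7, 11 and 11.7 CPM, -1.41), were lower. Hif1a was not called (-0.11, 95% interval -0.25 to 0.03), and both acids stood above medium (286 ± 12 and 309 ± 7.7 against 144 ± 11 CPM). Of 12 tested mitochondrially encoded mRNAs 6 were lower with IA and none higher (median -0.86), for example mt-Nd1 (361, 496 and 421 against 928, 853 and 952 CPM, -1.10) and mt-Cytb (-1.16). The oxidase subunit mt-Co1 was not called (-0.06, 95% interval -0.39 to 0.27; uncertain, 30.8% shared). Mitochondrially encoded genes took 0.673% to 0.811% of the counts in IA libraries and 1.05% to 1.12% in MA libraries. Nuclear copies share 97% or more of the sequence of 6 of the 12, whose counts are uncertain and under 4 CPM, and the count of 6 was 3 without IA replicate 1 or MA replicate 1.

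Cholesterol synthesis and uptake was higher with IA in 20 of 24 tested genes and lower in none (median 0.57). Srebf2, the transcription factor that drives these genes, held 239.7, 227 and 236 CPM with IA and 151, 150.2 and 137 CPM with MA (0.68, SE 0.07), with medium at 159.7, 146 and 139.8 CPM. The synthesis enzymes Cyp51 (1.05) and Sqle (0.74) and the sterol sensor partner Insig1 (0.73) were higher as well. Idi1 (1.42) differed most, though 15.8% of its sequence is shared with other genes. Targets of the sterol receptor LXR split into 7 of 15 higher, among them the transporter Abcg1 (0.56), and 3 lower: its relative Abca1 (-0.45), the ubiquitin ligase Mylip (-0.54), and Apoe (-0.42). The 7 were 4 without IA replicate 3 or MA replicate 2 and 4 under upper-quartile scaling.

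Nrf2 is freed from Keap1 when electrophiles modify Keap1, and it induces antioxidant genes. Of 29 genes of this system 10 were lower with IA, 3 were higher and the median was -0.13, with 95% intervals within 1.5-fold for 20. Across the alternatives 8 to 15 were lower and 2 to 4 higher. Hmox1, heme oxygenase, held 212, 231 and 205 CPM with IA and 366, 323 and 358 CPM with MA (-0.69, SE 0.09, adjusted p = 7.01e-06, edgeR), with medium at 385, 351 and 336 CPM. Here IA lay below both other groups. The cystine carrier Slc7a11 (-1.02), the glutathione synthesis subunits Gclm (-0.63) and Gclc (-0.56) and thioredoxin reductase Txnrd1 (-0.48) were lower with IA than with MA. Their place against medium varied. Gclc held 29.6 CPM with IA, 43.7 with MA and 42.8 in medium, while Gclm held 74.5, 116 and 74.3 CPM. Keap1 was higher with IA in every library (72.2, 80.1 and 79.3 against 39.7, 41.1 and 40.2 CPM, 0.94, SE 0.08). Nfe2l2, the gene of Nrf2 (0.07, 95% interval -0.05 to 0.20), and Nqo1, at about 2 CPM (-0.57, -1.08 to -0.06), were not called, but Nqo1 was called lower without IA replicate 2 and under upper-quartile scaling. Of 13 peroxiredoxins, superoxide dismutases and thioredoxin genes 5 were lower and 1 higher (median -0.18), and the 5 were 3 without IA replicate 1 or MA replicate 3. Prdx5, the peroxiredoxin the series is concerned with, held 199, 211 and 209.6 CPM with IA and 222, 231 and 249.7 CPM with MA (-0.18, 95% interval -0.34 to -0.02, edgeR adjusted p = 0.0786), both above the 115, 113 and 131 CPM of medium. It was called lower without MetSA replicate 3 (adjusted p = 0.0298), in a fit of the 6 libraries (0.0208) and under upper-quartile scaling (0.0127). Prdx6 (-0.50) and mitochondrial Sod2 (-0.48; uncertain, 12.8% shared) were lower.

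The integrated stress response, run by Atf4, gave both signs: 8 of 26 genes were higher and 6 lower (median 0.09). The stress factors Ddit3, which encodes CHOP (26.7, 22 and 21.6 against 7.49, 9.25 and 9.79 CPM, 1.40), Nupr1 (1.42), the folate enzyme Mthfd2 (1.35), the secreted Gdf15 (1.15) and Atf4 itself (0.47) were higher with IA. The serine synthesis enzymes Psat1 (-1.02) and Phgdh (-0.92; uncertain, 28.1% shared) were lower, and without IA replicate 3 the 6 were 3. Phgdh lost its call without IA replicate 3 or MA replicate 3. Of 21 chaperones and unfolded protein response genes 10 were higher and 1 lower (median 0.17), most by less than 1.5-fold, and Hspa5, the chaperone BiP, differed most (1600.1 against 1044 CPM, 0.62). The 10 were 6 without IA replicate 2 or 3 and 5 without MA replicate 2 or under upper-quartile scaling. The 1 lower, Dnajb9 (-0.25), lost its call without IA replicate 1 or 3 or MA replicate 2 or 3.

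Mitosis genes were lower with IA than with MA, while most replication genes were not called. Of 26 mitosis genes 22 were lower and none higher (median -0.73). Cdc20, which turns on the anaphase-promoting complex, held 2.87, 4.44 and 3.46 CPM with IA and 10.2, 8.45 and 8.99 CPM with MA (-1.36, SE 0.15), with medium at 11.9, 11.4 and 12.6 CPM. The cyclins Ccnb2 (-1.18) and Ccna2 (-0.68), the kinetochore protein Cenpf (-1.31) and the proliferation marker Mki67 (-0.73, adjusted p = 0.0547 without IA replicate 3) went the same way. Genes of DNA replication gave fewer calls: of 25 tested 5 were lower, such as Rrm2 (-0.77) and E2f2 (-0.76), and 2 higher, with Pcna (0.50; uncertain, 10.1% shared) among them, and with a median of -0.06 and intervals within 1.5-fold for 17. The 5 were 2 without IA replicate 1 or 3 or MA replicate 1, 3 without MA replicate 3 and 8 under upper-quartile scaling. The 2 were 1 without IA replicate 2 or MA replicate 2. Whether the difference between mitosis and replication genes exceeds chance was not tested. Targets of p53 were higher with IA in 13 of 19 and lower in 1 (median 0.47). Cdkn1a, the inhibitor p21 of the cell cycle, held 545, 537 and 554 CPM with IA and 252, 271 and 283 CPM with MA (1.02, SE 0.07), and Pmaip1 (1.18), Mdm2 (0.31) and Ccng1 (0.47) followed. Gadd45a went against them (4.0, 2.86 and 3.21 against 9.93, 10.7 and 11.3 CPM, -1.67). Myc and ribosome biogenesis genes were lower in 12 of 22 and higher in 4 (median -0.28), with Myc itself at 11.9, 11.5 and 10.3 CPM with IA and 18.6, 18 and 17.1 CPM with MA (-0.67). Its antagonist Mxd1 was higher (1.34).

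Lysosomal genes showed no common direction, with 11 of 31 higher and 7 lower, and 6 and 13 under upper-quartile scaling. The cathepsin C gene Ctsc (1.02) and the sterol carrier Npc2 (0.94) were higher, and the sterol transporter Npc1 (-0.51) and cathepsin D (Ctsd, -0.67; uncertain, 30.2% shared) lower. Of 12 iron genes 7 were higher and 1 lower (median 0.28). The ferroxidase ceruloplasmin (Cp) held 35.9, 37 and 42.2 CPM with IA and 5.05, 5.78 and 7.74 CPM with MA (2.63, SE 0.21), the iron exporter Slc40a1 differed by 0.38, and the ferritin heavy chain Fth1 was lower (-0.24).

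Other promoter strings were searched in the same 250 bases, on both strands. The gamma-activated site TTCNNNGAA stood in 7.02% of all promoters searched and 5.92% of those of tested genes. It stood in 9.99% of those of genes at least 2-fold higher with IA, 18.9% at 8-fold and 5.10% of those lower. It can overlap the interferon element by 3 letters, and the AP-1 and antioxidant strings can overlap as well. The AP-1 site TGANTCA stood in 6.75%, 4.68%, 9.09%, 13.2% and 5.80% of the same sets. The antioxidant element core TGACNNNGC stood in 10.2%, 11.8%, 10.9%, 13.2% and 13.7%, and the hypoxia element core ACGTG in 16.6%, 21.1%, 13.1%, 10.4% and 17.2%. The palindrome GTCTAGAC bound by SMADs stood in 0.167%, 0.207%, 0.298%, 0 and 0.232%, and the cell cycle string TTTGAA in 16.0%, 11%, 16.8%, 24.5% and 9.98%. Promoters of a family can be near copies, and a gene can have several, so these shares do not count independent promoters.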

How the data were processed

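The deposited table held raw read counts per gene for 12 poly(A) RNA-seq libraries. The authors' read alignment and counting used STAR, featureCounts and mm10, per the submitters' processing notes; the sources used here do not give versions, annotation or strand setting. All columns were mapped to a sample (0 were not). Small counts were more often even (66.1% of counts from 1 to 9) than large ones (50.9%), so halved counts were tried too.

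Genes passing filterByExpr (14113) were scaled by TMM and fitted over all 12 libraries with edgeR's quasi-likelihood test (edgeR 4.0.16, limma 3.58.1, R 4.3.3; 8 residual degrees of freedom), with the contrast IA minus MA and Benjamini-Hochberg adjustment over all tested genes. CPM uses TMM library sizes, ± is the SD of 3 libraries, and the SE and 95% interval come from the fitted log2 fold change and F. Where libraries are not from separate animals, p-values measure only the spread between these samples. The fit was tested on simulated counts.

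Gene lists and members were chosen with earlier results of these data known. Named were the 12 largest called rises and falls at 10 CPM or more in the higher group with no overlap, leaving out predicted genes; the up to 4 most significant genes of a list and up to 2 against its median; chosen pathway genes; and runs of at least 4 neighbouring genes. Other members named beside them were chosen after their values were seen. Positions and shared 100-base stretches follow GENCODE M21, and promoters RefSeq. A few genes are not reported here.

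Alternatives were other scalings, filters, the 6 libraries alone, a replicate block, halved counts, DESeq2 1.42.0 and leaving out 1 library at a time.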

Additional observations from a re-analysis of the deposited data

How the results depend on the processing

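No alternative moved the counts of called genes, of calls at 2-fold or of narrow intervals by more than 1.5 times, and 0 genes called in both fits changed direction. Calls came to 5266 with upper-quartile scaling (1977 higher and 3289 lower), 4834 with DESeq2 size factors, 4929 of 22026 genes with no filter, 4799 with at least 1 CPM in 3 libraries, 5414 with the 6 libraries alone, 4907 with halved counts, 5215 without MetSA replicate 3 and 5082 with DESeq2 (2714 higher and 2368 lower). Leaving out 1 IA or MA library gave 2165 to 2259 genes higher and 1788 to 1973 lower, 689 to 722 and 404 to 457 at 2-fold, and 6998 to 7076 narrow intervals; the lone pair then left in an arm shares the spread of the other groups. MetSA replicate 3 stood apart from the other methylsuccinic acid libraries. Mitochondrially encoded genes took 1.28% of its counts, against 0.759% in replicate 1 and 0.833% in replicate 2. It enters the shared estimate of the spread in the main fit. The replicate block gave 5380 calls, 2748 higher and 2632 lower. Same-numbered IA and MA libraries had correlated deviations of 0.096, 0.076 and 0.051 and other numbers -0.075 to 0.002. Every library thus correlated best with its own number, as a hint from the data. The sample titles also repeat the same WT numbers in every group, without saying what a number marks. The main fit did not take the numbers to pair samples, so its p-values ignore any such pairing. Of 263 genes named, 245 kept their side of the threshold under every alternative that gave a value, and 0 reversed; of 1410 counts of list members, 66 moved by more than 1.5 times. Upper-quartile scaling called Hif1a, Cxcl2, Prdx5, Fcgr2b and Nqo1 lower with IA and lost Jak1, Sdhaf2 and Smad4. Medians of lists near 0 turned sign under 1 or more alternatives, reaching -0.11 for CXC chemokines, -0.11 for adenosine genes, -0.13 for osteoclast genes, -0.16 for metalloproteinases, -0.06 for lysosomal genes and 0.01 for succinate dehydrogenase. At these depths, few counts limit only rare transcripts such as Nos2, Gbp2b and Ifnb1.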

Other observations

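Further groups were described from lists chosen after their values were seen, so their counts carry no test of a list. The counts are to be read beside the 17.8% called higher and the 16.8% called lower over all tested genes. Of 14 tested receptors for chemokines and other attractants 10 were higher with IA and 2 lower, with a median of 0.89 against -0.03 over all tested genes. The formyl peptide receptor gene Fpr2, which senses bacterial and mitochondrial peptides, held 6.37, 8.29 and 8.0 CPM with IA and 0.745, 0.247 and 0.385 CPM with MA (4.03, SE 0.36; uncertain, 12.3% shared). Its relative Fpr1 (2.51) and the monocyte receptor Ccr2 (1.33) were higher too. Going the other way, the fractalkine receptor gene Cx3cr1 held 219.8, 328 and 344 CPM with IA and 907, 974 and 1048 CPM with MA (-1.71, SE 0.25), and Cxcr4 differed by -1.32. No value of either group overlapped in Cx3cr1 or in Fpr2.

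Cx3cr1 is also a gene of tissue-resident macrophages such as microglia. Of 15 tested genes of a microglial signature 8 were lower with IA and 3 higher (median -0.37). Tmem119 held 0.681, 0.952 and 0.591 CPM with IA and 3.04, 3.27 and 2.6 CPM with MA (-1.99, SE 0.28), and Olfml3 (-1.07), Gpr34 (-0.84) and Fcrls (-0.83) were lower as well, while the purinergic receptors P2ry13 (1.31) and P2ry12 (0.62) were higher. Of 15 tested growth factor and related genes 8 were lower and 3 higher (median -0.52), with the platelet-derived growth factor gene Pdgfa (-1.51; uncertain, since a gene on the other strand overlaps it), the urokinase gene Plau (-1.21), hepatocyte growth factor (Hgf, -1.07) and osteopontin (Spp1, -0.91) among the lower. Of 14 tested genes of the Notch pathway 6 were lower and 5 higher (median -0.27). The ligand genes parted there, with Jag1 lower (46.5, 44.4 and 35.3 CPM with IA and 125, 122 and 119.5 CPM with MA, -1.54) and Dll1 higher (1.7, 1.67 and 2.09 and 0.112, 0.418 and 0.154 CPM, 2.98; uncertain like Pdgfa). The values of both were apart in all libraries.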
